A study of Mus musculus with 4 samples.

Results

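The germ cell genes described here are 9 genes: the specification regulators Prdm1, Prdm14 and Tfap2c, the early germ cell genes Dppa3, Nanos3 and Dnd1, the receptor gene Kit, and the later germline genes Dazl and Ddx4. They were listed by symbol with earlier results of these data known, and all 9 were found among the 24015 gene symbols in the files. RNA was sequenced from embryoid bodies, the floating aggregates in which mouse embryonic stem cells differentiate, taken on day 7. There were 2 Trim33-deficient and 2 Control libraries. Per the labels, the stem cell lines came from mouse embryos of an outbred strain, were homozygous for the Trim33-flox allele, carried a tamoxifen-inducible CreERT2 transgene and were at passage 8 to 10. The recombinase was activated by 4OH-Tamoxifen, given on day 4. The Control libraries are labelled wild type, and it is not stated whether those bodies carried the floxed allele or received 4OH-Tamoxifen. The labels describe 2 independent pairs, and apart from the replicate number they do not say which libraries form a pair. The deposited counts of same-numbered libraries also carry consecutive sample numbers, whose meaning is not stated.

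Primordial germ cells are the embryonic founders of sperm and eggs. In the mouse embryo, BMP signals act on epiblast cells, and the regulators Prdm1, Prdm14 and Tfap2c then silence the somatic programme, restore expression of pluripotency genes and start epigenetic reprogramming. RNA-binding proteins such as Nanos3 and Dnd1 keep the young germ cells alive, Kit and its ligand guide their migration, and Dazl and Ddx4 mark the cells that reach the gonad. Several of these genes are not restricted to germ cells: Prdm14 and Dppa3 are also expressed by naive embryonic stem cells, Tfap2c by trophoblast and surface ectoderm, Prdm1 by endoderm, and Kit by blood progenitors and melanoblasts. In bulk RNA, fewer cells of a type and less RNA per cell cannot be told apart.

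The libraries held 13808837 and 12109547 counts in genes for Trim33-deficient replicates 1 and 2, and 12390541 and 10422738 for Control replicates 1 and 2. Trim33 was counted at 608 and 495 in the Trim33-deficient libraries, against 1203 and 1117 in the Control libraries, with no overlap (log2 fold change −1.23, SE 0.13, adjusted p = 0.219 by edgeR's quasi-likelihood test and 1.7e-06 by DESeq2). Control replicate 1 stood apart from the other 3 libraries, with correlations across genes of 0.932 to 0.952 with them, whereas those 3 correlated at 0.967 to 0.978. The coefficients are across genes and are given as a description. The numbers of members, later germline genes and pluripotency genes below 0 are given below with and without it.

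No member passed the test across all genes, and the members differed widely in how far the data separated the groups. Prdm14, Dppa3, Nanos3 and Dnd1 lay lower in both Trim33-deficient libraries than in either Control library, all at low counts. Tfap2c, Dazl and Ddx4 were high in Control replicate 1 alone, and Prdm1 and Kit had overlapping groups at similar means. The edgeR quasi-likelihood test with Benjamini-Hochberg adjustment called 0 of 9 members at an adjusted p under 0.05, beside 2 of 14259 genes tested, or 0.014%. DESeq2 also called 0 members, beside 0.989% of genes, though it gave Nanos3 no adjusted p. The likelihood ratio test of edgeR called 0, beside 1.19%. At an unadjusted edgeR p under 0.05 there was 1 member, Dppa3, beside 7.84% of genes. It was lower, beside 4.78% of genes, and 0 members were higher, beside 3.06%. None of the members is among the 84 genes of the authors' deposited table.

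**Figure D1:**
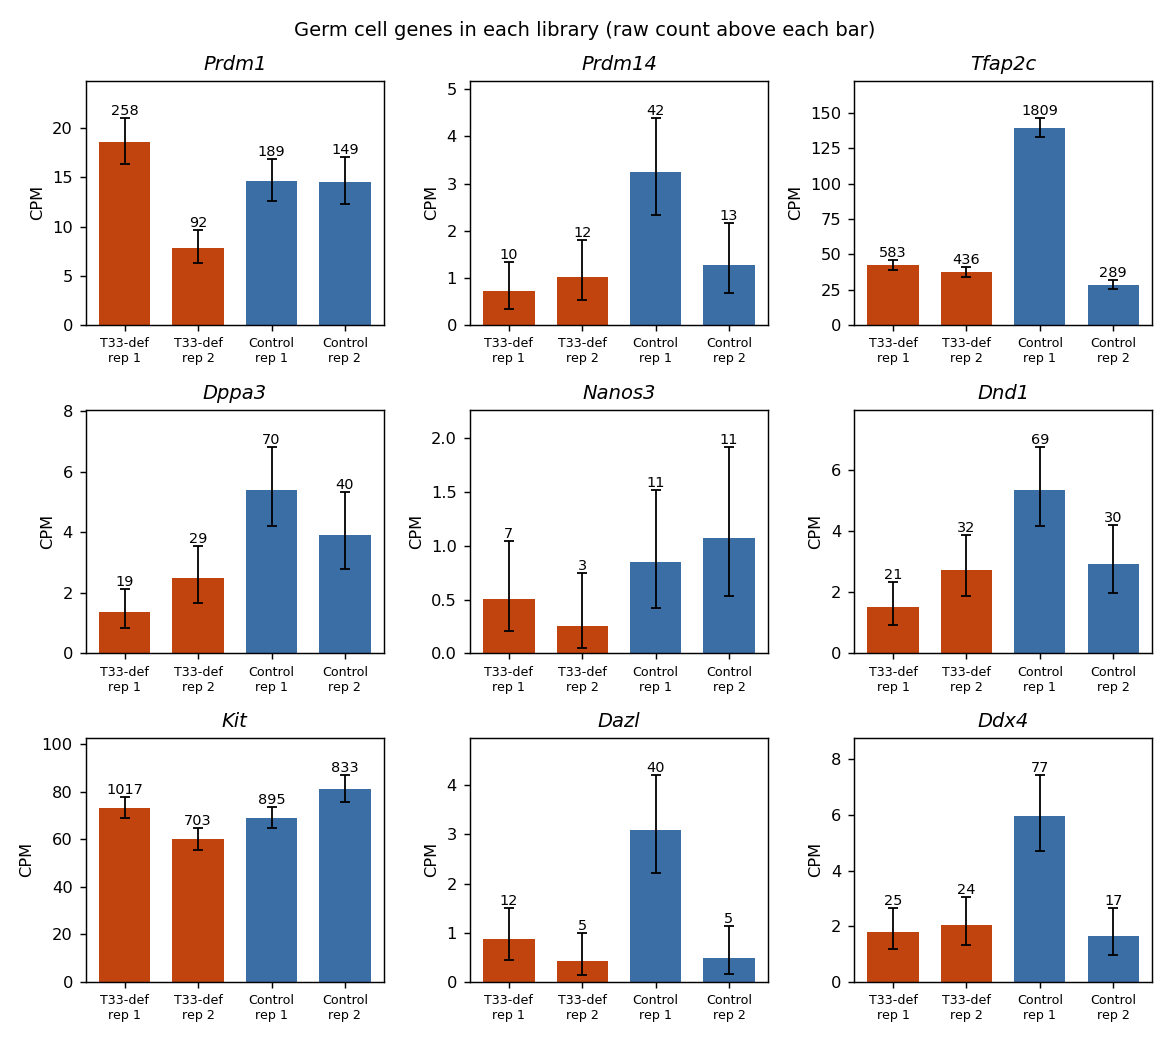
Level of each of the 9 germ cell genes in each library, in CPM scaled by TMM (y axis, linear from 0), with Trim33-deficient libraries (T33-def, orange) left of Control libraries (blue). Error bars are 95% exact Poisson intervals of the count, which cover counting error only, and the raw count stands above each bar; Tfap2c, Dazl and Ddx4 stand high in Control replicate 1 alone, at 1809, 40 and 77 counts.

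Levels of different genes were compared per kilobase of the longest annotated transcript, as CPM per kb (counts relative to the library's total, divided by length). Tfap2c and Kit were the highest members, at 13.3 ± 1.14 and 12.7 ± 1.80 CPM per kb in Trim33-deficient bodies and 28.1 ± 26.4 and 14.4 ± 1.64 CPM per kb in Control bodies (SD, n = 2 each). Their order did not hold beyond the spread in either group. Prdm1 and Dppa3 followed, Dppa3 being the higher of the 2 in Control bodies, at 2.51 ± 1.44 and 2.31 ± 0.939 CPM per kb in Trim33-deficient bodies and 2.76 ± 0.00723 and 5.59 ± 1.28 CPM per kb in Control bodies (SD, n = 2 each). The RNA-binding protein genes Dnd1, Ddx4 and Nanos3 averaged 1.03, 0.640 and 0.521 CPM per kb in Trim33-deficient bodies and 2.01, 1.26 and 1.32 CPM per kb in Control bodies. Prdm14 and Dazl had the lowest means, at 0.34 ± 0.0837 and 0.217 ± 0.104 CPM per kb in Trim33-deficient bodies. In Control bodies they were at 0.880 ± 0.545 and 0.601 ± 0.618 CPM per kb (SD, n = 2 each). This order did not hold in every library, as Nanos3 lay below Prdm14 in Trim33-deficient replicate 2 and in Control replicate 1. There were 6 members with fewer than 100 counts in every library: Prdm14, Dppa3, Nanos3, Dnd1, Dazl and Ddx4.

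Among the specification regulators, Prdm14 encodes a PR-domain protein that sustains the naive pluripotent and germ cell programmes. It had 10 and 12 counts in the Trim33-deficient libraries, against 42 and 13 in the Control libraries. Scaled, these were 0.721 and 1.02 CPM in Trim33-deficient and 3.25 and 1.27 CPM in Control libraries. The groups did not overlap, but the 95% Poisson interval of Control replicate 2, from 0.676 to 2.17 CPM, covered the value of both Trim33-deficient libraries. Prdm14 passed the filter on low counts only with a Control library, as Trim33-deficient replicate 1 fell short of it. The log2 fold change was −1.38 (SE 0.64, edgeR quasi-likelihood adjusted p = 0.664), and leaving out Control replicate 1 gave −0.55, leaving out Control replicate 2 −1.89. Within pairs taken by number, the ratio of Trim33-deficient to Control was 0.222 in pair 1, with a counting interval of 0.0994 to 0.450, and 0.807 in pair 2, with an interval of 0.337 to 1.92. The first interval excludes 1 and the second does not, but the 2 intervals overlap, so they do not show that the pairs differ.

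Prdm1 encodes the repressor BLIMP1, the earliest marker of mouse germ cell precursors. It had 258 and 92 counts in the Trim33-deficient libraries, against 189 and 149 in the Control libraries. The 2 Control libraries were nearly equal at 14.6 and 14.6 CPM, and the Trim33-deficient libraries lay on either side of them at 18.6 and 7.86 CPM. The log2 fold change was −0.14 (SE 0.45, edgeR quasi-likelihood adjusted p = 0.936). The sign turned when 1 library was left out, from −0.88 without Trim33-deficient replicate 1 to 0.36 without Trim33-deficient replicate 2. The pairs differed in direction, with a ratio of Trim33-deficient to Control of 1.27 in pair 1 and 0.540 in pair 2.

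Prdm1 is also used by endoderm, and the 13 visceral endoderm markers summed to 422 and 504 CPM in the Trim33-deficient libraries, against 1055 and 1352 CPM in the Control libraries, and none was at 0. Of these, 9 had a log2 fold change below 0 and 4, Gata4, Gata6, Lhx1 and Hhex, above 0, beside 50.2% below 0 over all genes. DESeq2 called 7 of these markers lower, beside 0.989% of all genes in either direction. The edgeR test called 1 lower, beside 0.014% of all genes. This was Cubn, an endocytic receptor gene (edgeR quasi-likelihood adjusted p = 0.0166). The median log2 fold change of the 13 markers was −2.45, against −0.0014 over all genes tested. The Prdm1 groups overlapped, and the part of these markers in its level was not tested.

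Tfap2c encodes the transcription factor AP-2γ. It had 583 and 436 counts in the Trim33-deficient libraries, against 1809 and 289 in the Control libraries. Control replicate 1 was the highest, 4.95-fold above Control replicate 2, which was the lowest of all 4 libraries. The Trim33-deficient libraries were close, at 42.0 and 37.2 CPM. Its log2 fold change was −1.09 (SE 0.74, edgeR quasi-likelihood adjusted p = 0.719). It became 0.49 without Control replicate 1, and without Control replicate 2 it was −1.81 with an edgeR adjusted p of 0.0353, the only left-out-library fit in which a member passed. The ratio of Trim33-deficient to Control was 0.301 in pair 1 (counting interval 0.274 to 0.330) and 1.32 in pair 2 (1.13 to 1.54). Counting error is small here, and both intervals exclude 1 on opposite sides.

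Its AP-2 paralogs Tfap2a and Tfap2b act in surface ectoderm and neural crest. Tfap2b had 335 and 172 counts in Trim33-deficient and 815 and 152 in Control libraries (edgeR adjusted p = 0.727). Tfap2a had 290 and 134 counts in Trim33-deficient and 398 and 154 in Control libraries (log2 fold change −0.50, SE 0.47). Ascl2, a trophoblast regulator, had 53 and 26 counts in Trim33-deficient and 201 and 30 in Control libraries. All 3 were highest in Control replicate 1, and none of them passed or separated the groups. Of 11 surface ectoderm and trophoblast markers tested, 7 had a log2 fold change below 0 and 4 above. Control replicate 1 was the highest library for 6 of them. Trp63, the marker with the smallest p, had 89 and 56 counts in Trim33-deficient and 93 and 118 in Control libraries (log2 fold change −0.73, SE 0.36). It was lower without overlap of the groups and highest in Control replicate 2. Of the 11, it was the 1 lower without overlap, beside 21.4% of all genes, and 1 was higher, beside 19.3%. The 13 surface ectoderm and trophoblast markers summed to 1536 and 1761 CPM in Trim33-deficient and 1751 and 1688 CPM in Control libraries, with Elf5 at 5, 3, 32 and 2 counts in the same order, and none at 0 in all libraries. Their part in the Tfap2c level was not tested.

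Dppa3, also called Stella, protects maternal methylation marks and is turned on in newly formed germ cells. It had 19 and 29 counts in the Trim33-deficient libraries, against 70 and 40 in the Control libraries. With 1.37 and 2.48 CPM in Trim33-deficient and 5.41 and 3.91 CPM in Control libraries, the groups did not overlap. Dppa3 had a log2 fold change of −1.28 (SE 0.46), with an unadjusted p of 0.0421 and an adjusted p of 0.628 in the edgeR quasi-likelihood test. It stayed below 0 without each library, between −1.76 and −0.90. The ratio of Trim33-deficient to Control was 0.253 in pair 1 (counting interval 0.144 to 0.426) and 0.634 in pair 2 (0.379 to 1.05). Of the 9 members, Dppa3 had the smallest p.

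Nanos3 encodes a zinc finger protein that protects migrating germ cells from apoptosis. It had 7 and 3 counts in the Trim33-deficient libraries, against 11 and 11 in the Control libraries. These were 0.505 and 0.256 CPM in Trim33-deficient and 0.850 and 1.07 CPM in Control libraries, the lowest mean CPM of any member in each group. The groups did not overlap, but it passed the filter on low counts only through the Control libraries. Nanos3 had a log2 fold change of −1.29 (SE 0.64, edgeR quasi-likelihood adjusted p = 0.670), and leaving out single libraries gave −1.86 to −0.91. Unlike Prdm14, Dppa3 and Dnd1, whose pair 1 ratios were the lower, its difference was larger in pair 2, with a ratio of 0.239 (counting interval 0.0427 to 0.903), than in pair 1, with 0.594 (0.195 to 1.68). Of its family, Nanos1 had 37 and 36 counts in Trim33-deficient and 27 and 20 in Control libraries, and Nanos2, the male germ cell member, was at 0 in all 4 libraries. The GRCm38 annotation places Mir181c and Mir181d within the Nanos3 locus on chromosome 8 (84173731 to 84185217, minus strand).

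Dnd1 encodes an RNA-binding partner of the Nanos proteins, and its loss depletes germ cells in mice. It had 21 and 32 counts in the Trim33-deficient libraries, against 69 and 30 in the Control libraries. At 1.51 and 2.73 CPM in Trim33-deficient and 5.33 and 2.93 CPM in Control libraries, the groups did not overlap, but the nearest libraries of the 2 groups were almost level. Dnd1 had a log2 fold change of −0.97 (SE 0.52, edgeR quasi-likelihood adjusted p = 0.678), and −0.48 without Control replicate 1. The ratio of Trim33-deficient to Control was 0.284 in pair 1 (counting interval 0.166 to 0.469) and 0.933 in pair 2 (0.549 to 1.59). Dnd1 overlaps Wdr55, a gene on the opposite strand, in the GRCm38 annotation, and no source used here gives the strand setting of the counting, which leaves reads in the overlap uncertain. Wdr55 was at 38.7 and 36.9 CPM in Trim33-deficient and 44.2 and 40.9 CPM in Control libraries, well above Dnd1.

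Kit encodes the receptor tyrosine kinase on which migrating germ cells depend. It had 1017 and 703 counts in the Trim33-deficient libraries, against 895 and 833 in the Control libraries. At 73.3 and 60.0 CPM in Trim33-deficient and 69.2 and 81.3 CPM in Control libraries, the groups overlapped. Kit had a log2 fold change of −0.17 (SE 0.16, edgeR quasi-likelihood adjusted p = 0.784), with the smallest SE of any member. The ligand gene Kitl had 1165 and 1059 counts in Trim33-deficient and 665 and 964 in Control libraries (log2 fold change 0.26, SE 0.30). The 15 blood and endothelial markers summed to 411 and 599 CPM in Trim33-deficient and 355 and 616 CPM in Control libraries, where Ptprc, the pan-leukocyte gene, had at most 1 count. Of 14 tested, 6 had a log2 fold change below 0 and 8 above. The 3 with the smallest p were Runx1 at 1.22, Cdh5 at −0.59 and Cd34 at 0.90, each without overlap of the groups. No other gene of the 14 separated the groups: 1 was lower, beside 21.4% of all genes, and 2 were higher, beside 19.3%. These 3 were picked by p from these data, so their separation is no further support. edgeR called none of the 14, with Runx1 at an unadjusted p of 0.00934. DESeq2 called 1, Runx1, a blood regulator gene, higher (DESeq2 adjusted p = 0.0467), beside 0.989% of all genes in either direction. The 8 melanocyte and neural crest markers summed to 35.1 and 46.9 CPM in Trim33-deficient and 35.5 and 48.2 CPM in Control libraries, with Tyr at 0 throughout. Their part in the Kit level was not tested.

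Dazl and Ddx4 are RNA-binding and RNA helicase genes of the later germline, and their promoters are known as CpG-rich sequences that are methylated and silent in somatic cells. RefSeq sequences of the 250 bases before the start (build GRCm38.p6) were at hand for 5 members, and 3 are shown because their CpG content contrasts, with each CG in capitals. That of Nanos3 lies at chr8:84176553-84176802, that of Dazl at chr17:50293621-50293870 and that of Ddx4 at chr13:112652311-112652560, all on the minus strand and printed 5′ to 3′. The RefSeq start of Nanos3 lies within the longer locus given above. The Prdm1 window also lies within its annotated locus, and the Ddx4, Dazl and Kit windows overlap theirs in part. The annotated Ddx4 locus reaches 112652475, so part of its window, with both motif matches given below, lies inside the locus.
Nanos3: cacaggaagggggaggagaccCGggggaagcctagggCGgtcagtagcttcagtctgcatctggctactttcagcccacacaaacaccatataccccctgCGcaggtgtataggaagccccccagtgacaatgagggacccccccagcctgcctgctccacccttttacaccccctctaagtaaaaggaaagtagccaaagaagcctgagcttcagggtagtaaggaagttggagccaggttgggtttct
Dazl: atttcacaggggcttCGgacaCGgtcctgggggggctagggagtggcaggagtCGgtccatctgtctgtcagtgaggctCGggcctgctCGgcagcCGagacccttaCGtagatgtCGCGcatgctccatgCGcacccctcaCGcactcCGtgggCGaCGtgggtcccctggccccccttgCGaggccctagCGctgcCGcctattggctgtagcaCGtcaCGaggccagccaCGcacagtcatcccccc
Ddx4: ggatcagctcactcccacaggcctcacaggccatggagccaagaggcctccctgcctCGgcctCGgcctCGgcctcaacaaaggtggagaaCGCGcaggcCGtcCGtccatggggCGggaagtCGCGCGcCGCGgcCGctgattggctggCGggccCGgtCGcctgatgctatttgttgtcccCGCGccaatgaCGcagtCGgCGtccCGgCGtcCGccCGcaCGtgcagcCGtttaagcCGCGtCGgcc
The window of Ddx4 held 31 CG dinucleotides and that of Dazl 20, more than 95.1% and 82.3% of 27025 mouse promoters of the same length, where the median is 5. That of Nanos3 held 3. The windows of Prdm1 and Kit held 15 and 17. On both strands, the Ddx4 window held 1 match to GCGGGAA, the E2F-type motif, beginning 136 bases before the start, and 1 match to CACGTG, the E-box, beginning 29 bases before it. The other 4 windows held neither, and 3.86% and 5.93% of all promoters held each. The motifs were chosen after the sequences were seen and do not overlap, and a match is a description of letters only.

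Dazl had 12 and 5 counts in the Trim33-deficient libraries, against 40 and 5 in the Control libraries. Only Control replicate 1 stood high, at 3.09 CPM, 6.33-fold above Control replicate 2 at 0.488 CPM. The Trim33-deficient libraries, at 0.865 and 0.427 CPM, lay on either side of Control replicate 2, so the groups overlapped. For Dazl the log2 fold change was −1.46 (SE 0.99, edgeR quasi-likelihood adjusted p = 0.719), and it became 0.41 without Control replicate 1. Ddx4, the mouse Vasa gene, had 25 and 24 counts in the Trim33-deficient libraries, against 77 and 17 in the Control libraries. The Trim33-deficient libraries were level at 1.80 and 2.05 CPM and lay between the Control libraries at 5.95 and 1.66 CPM. Its log2 fold change was −0.99 (SE 0.69, edgeR quasi-likelihood adjusted p = 0.723), and 0.21 without Control replicate 1.

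Set side by side, the difference between groups exceeded the gaps within both groups for 3 of 9 members, Dppa3, Nanos3 and Dnd1, beside 27.9% of all genes tested. Nanos3 is counted here and below although it passed the filter only through the Control libraries. Prdm14 and Dazl, counted below, also needed a Control library to pass the filter. For Dppa3 the difference of mean log2 CPM was −1.24, with gaps of 0.78 between the Trim33-deficient and 0.45 between the Control libraries. For Nanos3 these were −1.08, 0.67 and 0.29, and for Dnd1 −0.90, 0.79 and 0.83. For Prdm14, Tfap2c, Dazl and Ddx4 the gap between the Control libraries, at 1.25, 2.30, 2.32 and 1.74, was more than the size of the difference between groups. The median gap over all genes tested was 0.21 between the Trim33-deficient and 0.24 between the Control libraries.

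**Figure D2:**
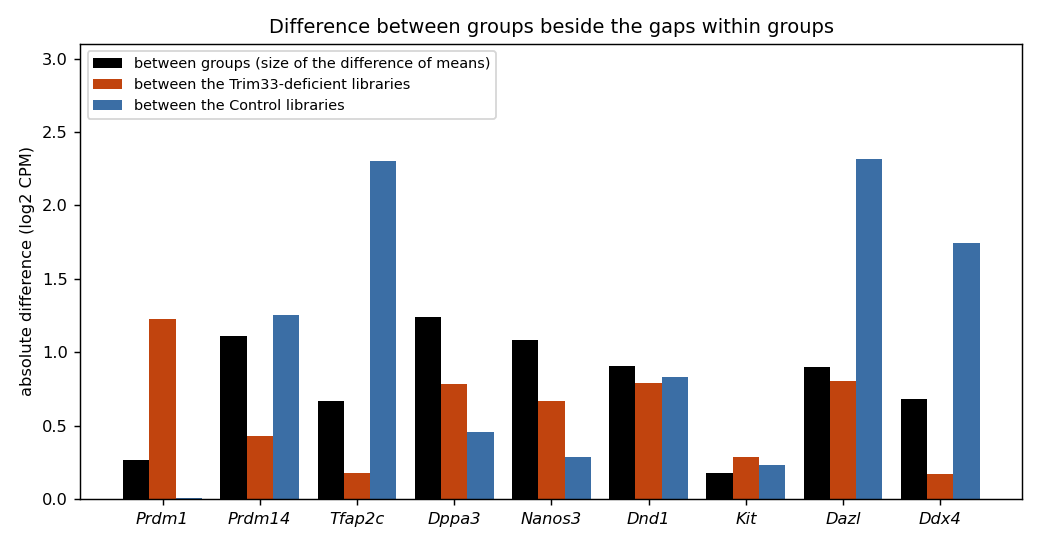
For each germ cell gene, the size of the difference between the Trim33-deficient and Control means (black), the gap between the Trim33-deficient libraries (orange) and the gap between the Control libraries (blue), in log2 CPM with a prior count of 2. The black bar is the tallest for Dppa3, Nanos3 and Dnd1, and the blue bar is the tallest for Prdm14, Tfap2c, Dazl and Ddx4, at 1.25, 2.30, 2.32 and 1.74.

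Counted over the set, 9 of 9 members had a log2 fold change below 0, beside 50.2% of all genes, with a median of −1.09 against −0.0014, and 7 lay below −0.9, beside 5.45% of genes. Without Control replicate 1, 6 of 9 were below 0 and the median was −0.29. There were 4 members with both Trim33-deficient libraries below both Control libraries, beside 21.4% of genes, and 0 in the other direction, beside 19.3%. Control replicate 1 was the highest library for 6 members, beside 31.7% of genes, and it was at least 2-fold above Control replicate 2 for 4 members, beside 7.3%. Within both pairs 5 members were lower, beside 29.8% of genes. With 2 libraries against 2, the smallest two-sided exact permutation p for a single gene is 0.333, so no member could pass such a test.

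**Figure D3:**
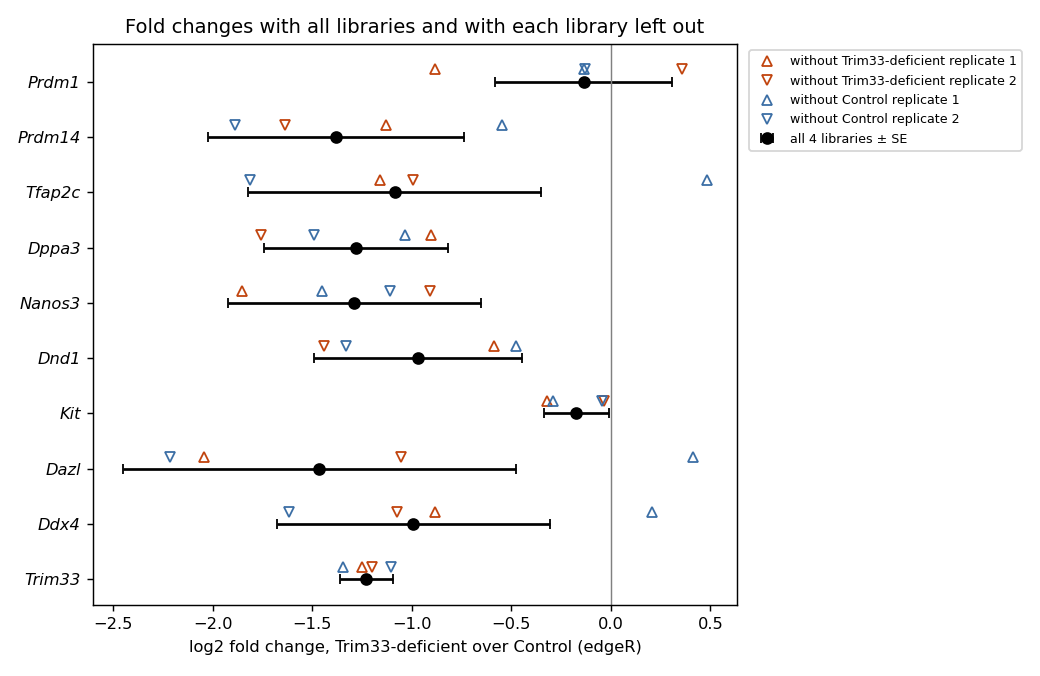
edgeR log2 fold change of Trim33-deficient over Control (x axis) for the 9 germ cell genes and Trim33, with all 4 libraries (black, ± SE) and with each library left out (open triangles). Tfap2c, Dazl and Ddx4 lie above 0 without Control replicate 1, at 0.49, 0.41 and 0.21, Prdm1 lies above 0 without Trim33-deficient replicate 2, at 0.36, and Prdm14, Dppa3, Nanos3, Dnd1 and Kit stay below 0 without each library.

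Further genes of the later germline were listed, many of them in meiosis or in the piRNA pathway that silences transposons. Of 37 genes listed, 2 of them members, 22 passed the filter, 20 had a log2 fold change below 0, beside 50.2% of all genes, and the median was −1.05, with 0 called in either direction. Dazl, Tdrd1, Sycp2, Tex14, Fkbp6 and Stk31 needed a Control library to pass the filter, and all of these are counted among those below 0. Control replicate 1 was the highest library for 17 of 22, Dazl and Ddx4 included, and without it 13 were below 0 and 9 above, with a median of −0.24. The 3 genes with the smallest p were Tdrd5, Dmrt1 and Tex14. Tdrd5, a piRNA pathway gene, had 61 and 52 counts in Trim33-deficient and 96 and 81 in Control libraries (log2 fold change −0.79, SE 0.27, edgeR adjusted p = 0.621). Dmrt1, a gonadal transcription factor gene, had 24 and 34 counts in Trim33-deficient and 117 and 44 in Control libraries (−1.53, SE 0.53, edgeR adjusted p = 0.622). Tex14, needed for the bridges between germ cells, had 10 and 12 counts in Trim33-deficient and 49 and 17 in Control libraries (−1.65, SE 0.60, edgeR adjusted p = 0.630). All 3 separated the groups without passing, but they were picked by p from these data, so their separation is no further support. Of the 22, 9 were lower without overlap, beside 21.4% of all genes, and 0 were higher, beside 19.3%. The 9 include Sycp2 and Tex14, which needed a Control library to pass the filter. The list summed to 128 and 145 CPM in Trim33-deficient and 249 and 136 CPM in Control libraries. Nanos2 and Boll were at 0 in all 4 libraries, and the meiotic genes Stra8 and Sycp1 had at most 7 counts.

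**Figure D4:**
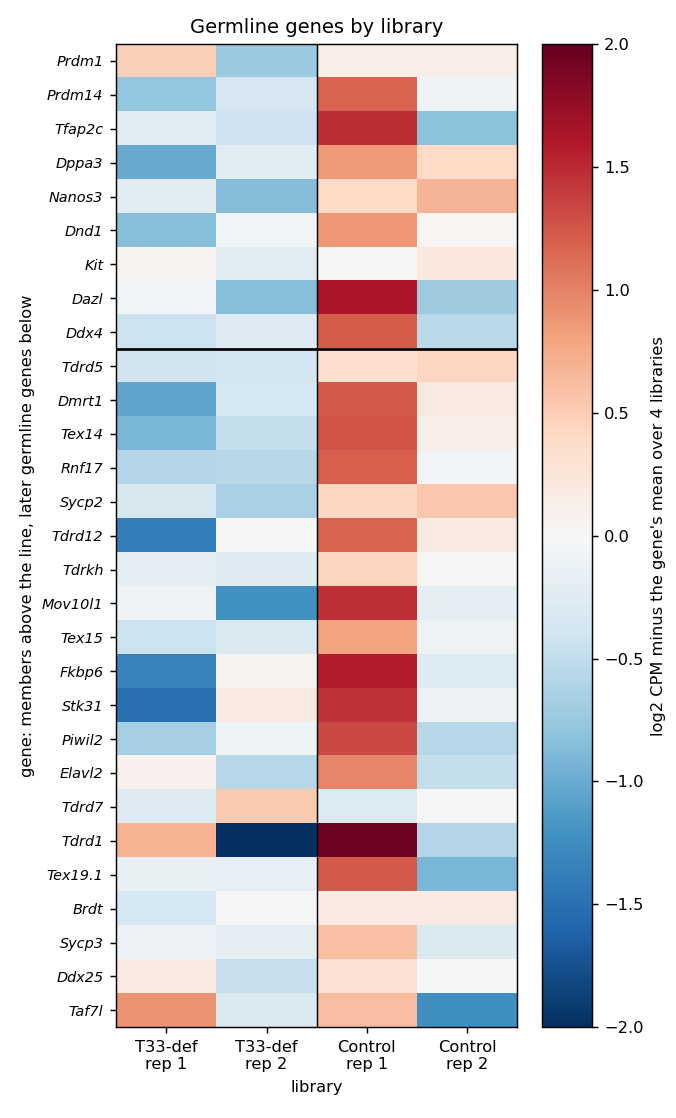
Log2 CPM of each germline gene minus its mean over the 4 libraries (colour, red above and blue below), with Trim33-deficient libraries (T33-def) left of Control libraries, the 9 members above the line and the other 20 tested later germline genes below it in order of p. The column of Control replicate 1 is red for most genes, and it is the highest library for 17 of the 22 tested later germline genes, Dazl and Ddx4 included.

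The listed genes of germ cell induction and migration did not share one direction. The list holds ligand, receptor and signal transducer genes and also transcription factor and marker genes, and these were not counted apart. Of 20 genes listed, all passed the filter, 10 had a log2 fold change below 0 and 10 above, with a median of −0.016 and 0 called. Bmp4, the inducing ligand from the extraembryonic ectoderm, had 966 and 721 counts in Trim33-deficient and 487 and 847 in Control libraries (log2 fold change 0.13, SE 0.39). The 3 genes with the smallest p were the BMP receptor gene Bmpr2 at 0.48 (SE 0.21), the endoderm and human germ cell regulator gene Sox17 at −0.41 (SE 0.19) and the ligand gene Bmp2 at 0.89 (SE 0.47), each with an edgeR adjusted p of 0.663 to 0.677. Cxcr4, the chemokine receptor gene of migrating germ cells, had 366 and 182 counts in Trim33-deficient and 409 and 173 in Control libraries.

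Genes of naive and core pluripotency are shared by germ cells and embryonic stem cells. All 20 passed the filter, 18 had a log2 fold change below 0, beside 50.2% of all genes, and the median was −0.61. Without Control replicate 1, 15 were below 0 and 5 above, with a median of −0.26. Of the 20, 8 were lower without overlap, beside 21.4% of all genes, and 1 was higher, beside 19.3%. The higher one was Klf4, named after its value was seen, at 0.46 (SE 0.27). edgeR called 0 of the 20, with 4 at an unadjusted p under 0.05, all lower, beside 4.78% of all genes. DESeq2 called 1 lower, beside 0.989% of all genes in either direction. This was Tfcp2l1, a naive state transcription factor gene, with 419 and 341 counts in Trim33-deficient and 663 and 624 in Control libraries (DESeq2 adjusted p = 0.0145). Tdh, the threonine dehydrogenase gene, had 140 and 191 counts in Trim33-deficient and 492 and 252 in Control libraries, and Nanog 165 and 171 in Trim33-deficient and 422 and 188 in Control libraries. The list summed to 574 and 519 CPM in Trim33-deficient and 928 and 690 CPM in Control libraries, with no gene at 0, and Control replicate 1 was the highest library for 16 of 20. Dppa2 and Dppa4, pluripotency factors that share a naming series with Dppa3, had 21 and 28, and 44 and 65, counts in Trim33-deficient and 39 and 15, and 116 and 47, in Control libraries, with overlapping groups. The part of these genes in the levels of Prdm14, Dppa3 and Dnd1 was not tested.

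Likeness of pattern was measured as the root-mean-square difference of log2 CPM centred on each gene's mean over the 4 libraries, among genes of at least 5 CPM. With 4 libraries this is a description only. The gene nearest to Dppa3 was Tdh, at 0.070, followed by Ero1l at 0.12, and the pluripotency gene Dppa5a was the gene second nearest to Dnd1, at 0.13, after Ndrg1 at 0.12. Prdm14 lay nearest to Upp1 at 0.029 and Gls2 at 0.075, and Nanos3 to Car4 at 0.060 and Sowahb at 0.11. Tfap2c lay nearest to Nos2 at 0.054 and Ddn at 0.097, Dazl to Nfasc at 0.087 and Neurog1 at 0.10, and Ddx4 to Gpr116 at 0.047 and Elf3 at 0.086. Prdm1 lay nearest to Klk8 at 0.082 and Cdh6 at 0.095. Kit varied so little that 689 of 11529 genes lay within 0.1 of it, the nearest being 5430416N02Rik and Krba1. Among the members themselves, the nearest pairs were Dnd1 with Dppa3 at 0.22 and with Prdm14 at 0.22, then Ddx4 with Tfap2c at 0.23 and Dazl with Tfap2c at 0.25.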

How the data were processed

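Total RNA of day 7 embryoid bodies was sequenced in 4 libraries, grouped by title. Per gene symbol, the authors deposited raw counts; STAR, HTSeq, DESeq and build mm9 are named, without versions, in the submitters' processing notes. Reads assigned to no feature made up 55.5% to 56.0% of reads and, like other rows that name no gene, stayed out of library sizes and tests. The authors' deposited table of 84 genes gives, per the file headers, fold (ratio), log2 fold change and p-value; it was used only to look up members.

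Genes were filtered with filterByExpr (14259 kept, all 9 members among them), scaled by TMM and tested with edgeR 4.0.16 (quasi-likelihood, two-sided, Benjamini-Hochberg adjustment, threshold 0.05) in R 4.3.3, beside DESeq2 1.42.0, limma 3.58.1 voom and the alternatives below. SE is the absolute log2 fold change over the square root of F. log2 CPM used a prior count of 2. Poisson and pair intervals are exact, at 95%, and cover counting error only. Pair intervals compare libraries, not conditions. The fits were tested on simulated data. Replicates were no duplicate deposits (chi-square per degree of freedom 24.3 for Trim33-deficient and 35.7 for Control libraries), and the labels call the pairs independent without saying whether by line or by culture, so the spread that p-values measure may be partly technical. Lengths are those of the longest GENCODE M21 transcript (GRCm38), found for 95.6% of tested genes. Named genes were the 9 members, their partners and paralogs, up to 3 genes of smallest p in each list described (not all are given), and the 2 genes most alike to each member; Wdr55, Elf5, Stra8, Sycp1, Klf4, Gata4, Gata6, Lhx1, Hhex and Ptprc were added after values were seen, as was Tyr. Tdrd1, Sycp2, Fkbp6 and Stk31 were named for how they passed the filter, also after values were seen. Members and lists were chosen with earlier results of these data known.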

Additional observations from a re-analysis of the deposited data

How the results depend on the processing

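The edgeR quasi-likelihood test called 2 genes lower and 0 higher. With DESeq2 the calls were 115 lower and 26 higher, with the likelihood ratio test of edgeR 140 and 29, with limma voom 0 lower, without a low-count filter 14 lower and at a threshold of 0.1 4 lower. With each library left out there were 0 to 66 lower and 0 to 25 higher calls. RLE, upper quartile and total scaling, the stricter filter and the replicate block each left 2 lower and 0 higher. Deviations of same-numbered libraries from their group means correlated at 0.236 across genes. With 2 pairs, these libraries are tied only by the replicate number and by consecutive sample numbers. With the replicate block the members' adjusted p ran from 0.446 to 0.832, and no call changed. Of 88 values of members under settings that kept all libraries, 88 kept their direction and stayed uncalled. Those at the threshold of 0.1 are the main fit's own values, so their direction could not change. The stricter filter removed Nanos3 and Dazl. Of 36 values with 1 library left out, where the lone library takes its spread from the other group, 4 reversed: Tfap2c ran from −1.81 to 0.49, Dazl from −2.21 to 0.41, Ddx4 from −1.62 to 0.21 and Prdm1 from −0.88 to 0.36. After the data were seen, counts of genes below 0 were added. With 1 library left out they ran from 6 to 9 of 9 members and from 15 to 18 of 20 pluripotency genes. For later germline genes they ran from 13 of 22 tested, without Control replicate 1, to 24 of 25. The filter kept 25 when any other library was left out. Each count was lowest without Control replicate 1. In the 6 members with 3 to 77 counts per library, the 95% counting interval of the ratio excluded 1 in pair 1 for Prdm14, Dppa3, Dnd1, Dazl and Ddx4, and in pair 2 for Nanos3 alone; the cause of the spread between pairs was not tested.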
